A study of Mus musculus with 10 samples.

Results

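The genes followed here, 6 of the 32285 genes counted, encode secreted proteins and were traced through single-cell RNA sequencing libraries of the cochlea and the vestibule of old mice. They are Otos, Coch, Otor, Ucma, Ptgds and Epyc. They were taken by symbol from a list of secretory products linked with inner ear fibrocytes, which was selected on their levels across clusters in earlier results of these data, so their levels across cell types are given here as a description and are not tested. All 6 symbols were found, and all 6 had counts in both organs. The samples were wild-type CBA/J mice aged 22 months, of both sexes, with no treatment, and each library pooled 7 to 8 animals whose tissue was dissociated with collagenase IV. Libraries of young animals were not analysed here. Each organ had 5 libraries, but replicate 2 of each organ repeated replicate 1: all 1313 barcodes of the cochlea's replicate 2 and 1633 of the 1641 of the vestibule's were also in replicate 1, and the counts differed by less than sampling noise (chi-square per gene 0.142 and 0.121). Each pair was counted as 1 sample, which left 4 libraries per organ, numbered 1, 3, 4 and 5.

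Fibrocytes are the connective tissue cells of the spiral ligament and spiral limbus in the cochlea and of the tissue beneath the sensory epithelia in the vestibule. They lay down extracellular matrix and pass potassium ions back towards the endolymph through ion pumps and gap junctions. Coch encodes cochlin, an abundant matrix protein of the inner ear that is mutated in a form of inherited deafness. Epyc encodes epiphycan, a small leucine-rich proteoglycan first known from cartilage, and Ucma encodes a vitamin K-dependent, Gla-rich protein of cartilage matrix. Otos encodes otospiralin, a small secreted protein of nonsensory inner ear cells, and Otor encodes otoraplin, a small secreted protein of the MIA family. Ptgds encodes lipocalin-type prostaglandin D2 synthase, an enzyme that is secreted and also carries lipophilic molecules.

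The genes lie on 4 chromosomes of the GRCm38 build, each annotated as protein coding. Coch is at chr12:51593341-51605771 on the plus strand, Epyc at chr10:97644068-97682454 on the plus strand, Ucma at chr2:4976122-4985748 on the plus strand, Otos at chr1:92644218-92648841 on the minus strand, Otor at chr2:143078473-143081713 on the plus strand and Ptgds at chr2:25466709-25470046 on the minus strand. The 250 bases before the start of the RefSeq transcript (build GRCm38.p6) are shown for 4 genes, because Otos, Coch, Otor and Ucma were high together in clusters of the vestibule, whereas in the cochlea Otos and Ucma peaked in other clusters than Coch and Otor. Their regions are chr1:92648842-92649091 on the minus strand for Otos, chr12:51593091-51593340 on the plus strand for Coch, chr2:143078143-143078392 on the plus strand for Otor and chr2:4975872-4976121 on the plus strand for Ucma. Capitals mark matches, on either strand, to 7 motifs: the TATA box spelled TATAAA, the CAAT box spelled CCAAT, the GC box spelled GGGCGG, a SOX-type motif spelled ACAAAG, a POU-type motif spelled ATGCAAA, a RUNX-type motif spelled ACCACA and an AP-1-type motif spelled TGANTCA.
Otos: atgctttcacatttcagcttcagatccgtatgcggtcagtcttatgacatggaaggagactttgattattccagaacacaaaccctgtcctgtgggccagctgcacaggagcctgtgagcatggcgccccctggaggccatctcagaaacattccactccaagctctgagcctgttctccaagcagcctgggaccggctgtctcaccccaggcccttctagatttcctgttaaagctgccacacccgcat
Coch: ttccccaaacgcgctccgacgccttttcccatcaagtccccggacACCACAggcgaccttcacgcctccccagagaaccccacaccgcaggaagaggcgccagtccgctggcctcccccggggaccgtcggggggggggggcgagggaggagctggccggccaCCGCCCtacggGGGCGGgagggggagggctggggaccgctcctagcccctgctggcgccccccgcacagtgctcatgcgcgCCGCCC
Otor: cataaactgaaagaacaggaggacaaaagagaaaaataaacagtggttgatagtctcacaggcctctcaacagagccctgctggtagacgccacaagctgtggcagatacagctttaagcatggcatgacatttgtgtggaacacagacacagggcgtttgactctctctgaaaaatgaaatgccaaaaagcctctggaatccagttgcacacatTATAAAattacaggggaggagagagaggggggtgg
Ucma: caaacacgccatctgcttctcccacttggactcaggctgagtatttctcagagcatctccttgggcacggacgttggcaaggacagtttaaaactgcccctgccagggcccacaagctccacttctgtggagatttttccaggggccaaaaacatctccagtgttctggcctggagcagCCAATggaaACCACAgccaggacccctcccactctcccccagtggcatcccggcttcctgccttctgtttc

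The 4 windows had little in common at this level. The Coch window was 74.8% G and C, against a median of 52.4% over all 32536 windows of this length, and held 3 GC boxes, found in 33.0% of all windows, and an ACCACA, found in 14.0%. The Otor window held TATAAA 35 bases before the start, a motif of 12.3% of all windows. The Ucma window held CCAAT, a motif of 33.8% of all windows, and ACCACA. Otos held no match, whereas 77.8% of all windows held at least 1 of these motifs. Ptgds (not printed) held TGANTCA 35 bases before its start, a motif of 6.73% of all windows. Epyc has 2 starts, of which 1 window held no match and the other held ACAAAG, a motif of 16.5% of all windows, and ATGCAAA, of 4.15%. A match is a description of the letters and does not mark a site in use.

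After barcodes under 1000 UMIs, under 200 genes or with 25% or more mitochondrial UMIs were left out, 7272 cells of the cochlea and 10424 of the vestibule were kept. A UMI (unique molecular identifier) marks 1 captured RNA molecule. Levels are given as UMIs of a gene per 1000000 UMIs of the cells named (CPM), and since each molecule was counted once at its 3′ end they were not divided by transcript length. Totals ran from 2738036 to 26974948 UMIs per library, with 571 to 5438 kept cells and a median of 1889 to 3298 UMIs per kept cell. Other than replicates 1 and 2, no pair of libraries shared more than 41 barcodes. Cells were clustered within each organ, and clusters were named from markers other than the 6 genes, with the ending "-like". Among these, 568 cells of the cochlea (clusters 6 and 13) and 2196 of the vestibule (clusters 0 and 3) were fibrocyte-like. The name was not equally firm in all clusters. Both vestibular clusters held 4 of 6 fibrocyte markers, as did cochlear cluster 13. Vestibular cluster 0, with 1443 of the 2196 cells, also held 3 stromal markers. It was led by Slco1a4, Slc7a11 and Rbp4, none of them a fibrocyte marker used here. Cochlear cluster 6 held 3 fibrocyte and 4 stromal markers and was led by Dmp1, an osteocyte gene. Several clusters rich in the 6 genes stayed unnamed and are called by number and leading genes.

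In the vestibule 5 of the 6 genes were highest in the same named class. Ptgds was at 155277, 154587, 161613 and 149669 CPM in the fibrocyte-like cells of replicates 1, 3, 4 and 5, or 15.5% ± 0.49 of all their UMIs (SD, n = 4 libraries). Coch was at 21807, 23237, 19863 and 20657 there, Otos at 3726, 6077, 3638 and 4176, and Ucma at 4616, 3865, 3262 and 2934. Otor was at 1151, 1405, 1234 and 1096. The spread between libraries was small beside the distance to every other named class: for these 5 genes the lowest fibrocyte-like library lay above the highest library of the class next in order. That next class was the melanocyte- or intermediate cell-like class for Otor and Ptgds (means of 193 and 34091), the macrophage-like class for Coch and Ucma (2024 and 427) and the marginal or dark cell-like class for Otos (959). Below it nearly all neighbours overlapped between libraries. Epyc was nearly missing from this group, at 0, 4.19, 2.53 and 1.22 CPM.

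Clusters of the vestibule differed in the balance of the 5 genes more than in which of them they held. Cluster 5 (leading genes Gm525, Otos, S100b, Ppp1r1a and Otor) and cluster 1 (Otos, Gm525, Ptgds, Coch and Otor) stayed unnamed, with 517 and 877 cells, and held the highest Ptgds, at means of 231545 and 231009 CPM. Otos followed the same order, at 13190 ± 1525 in cluster 5 and 12618 ± 4095 in cluster 1, against 6513 ± 1137 in fibrocyte-like cluster 3 and 3303 ± 1273 in fibrocyte-like cluster 0 (SD, n = 4). Coch was lower in cluster 5, at 11005 ± 2149, than in clusters 1, 0 and 3, at 22590, 22367 and 19692, and the libraries did not overlap. Ucma was highest in cluster 3 (Otor, Ucma, Spink8, Ppp1r1a and Gm5089), at 5814, 5337, 4650 and 4250 in the 4 libraries, above all 4 libraries of clusters 0, 1 and 5. Otor ran from 841 ± 182 in cluster 0 to 2003 ± 319 in cluster 5. The median depth of clusters 1 and 5 was 1327 and 1352 UMIs per cell, against 2037 and 1990 in clusters 0 and 3; the part of depth in these differences was not tested.

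In the cochlea the same genes peaked in different clusters, although Coch and Otor shared clusters 2 and 11. Otos and Ptgds were highest in cluster 10, 235 unnamed cells led by Otos, Gm525, Nnat, Ptgds and S100b. The cluster had 12, 185, 15 and 23 cells in replicates 1, 3, 4 and 5, at a median of 1384 UMIs per cell. An Otos UMI was seen in 49.8% of its cells. Otos stood there at 10677, 10690, 54805 and 55454 CPM in these libraries, in a lower and a higher pair. Ptgds was at 41338, 112198, 52497 and 142279. Coch was highest in cluster 6 (Dmp1, Cemip, Inmt, Hhip and Fst), at 11419, 12483, 14645 and 19527, above every library of cluster 2 (5357 to 7514) and cluster 11 (3895 to 6871). Otor was confined to those latter clusters at levels over 1000: cluster 11 (Otor, Corin, Notum, Plpp4 and Emilin2) held it at 2677, 4074, 3393 and 3455 and cluster 2 at 2440, 3468, 2015 and 2655, and the 2 clusters overlapped. No UMI of Ucma was seen in the 234 cells of cluster 11, which allows a level of up to 0.804 CPM. Otor was nearly missing from the cochlear fibrocyte-like cells, at 4.54, 48.9, 20.4 and 21.

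Ucma and Epyc were outside the fibrocyte-like cells of the cochlea. Ucma was highest in cluster 23 (Lmo3, Rubie, Npnt, Ucma and Rasgef1b), at 240, 812 and 733 in the 3 libraries with enough of its cells, and overlapped there with cluster 10, at 393 ± 343. Epyc was highest in cluster 7 (Fbp2, Gm48242, Padi1, Clic6 and Gm13032), at 5438, 6813, 5646 and 7674. It was at 4176, 5760, 6011 and 7689 in cluster 3, whose leading genes included Mia and Col11a1, at 3918 ± 611 in cluster 9, nonsensory epithelial cell-like with Otoa and Ceacam16, at 3853 ± 713 in supporting cell-like cluster 8 and at 2446 ± 1313 in cluster 23 (n = 3). These 5 clusters overlapped with their neighbours in that order. Over named classes Epyc stood at 2316 ± 346 in supporting cell-like and 1147 ± 481 in nonsensory epithelial cell-like cells, which did not overlap, and at 13.6, 51.9, 114 and 12.6 in fibrocyte-like cells. For Epyc the data of the cochlea therefore went against the label of a fibrocyte product, and in the vestibule it had too few UMIs to tell.

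Ptgds reached furthest over cochlear cell classes. Besides cluster 10 it was at 8526, 38754, 38230 and 44346 CPM in fibrocyte-like cluster 13 (led by Fxyd2 and Kcnk2), where replicate 1 stood low. Melanocyte- or intermediate cell-like cluster 19 held 43094 and 15916 in the 2 libraries with such cells, and stromal-like cluster 15 held 9079 and 27756 in 2 libraries. Nonsensory epithelial cell-like cluster 5 (Vmo1, Crhbp and Dkk2) was at 2407, 9684, 8767 and 8213. Among named classes of the cochlea, only Coch and Epyc had a first class whose libraries all lay above the next; for Otos, Otor, Ucma and Ptgds the first and second classes overlapped.

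**Figure D1:**
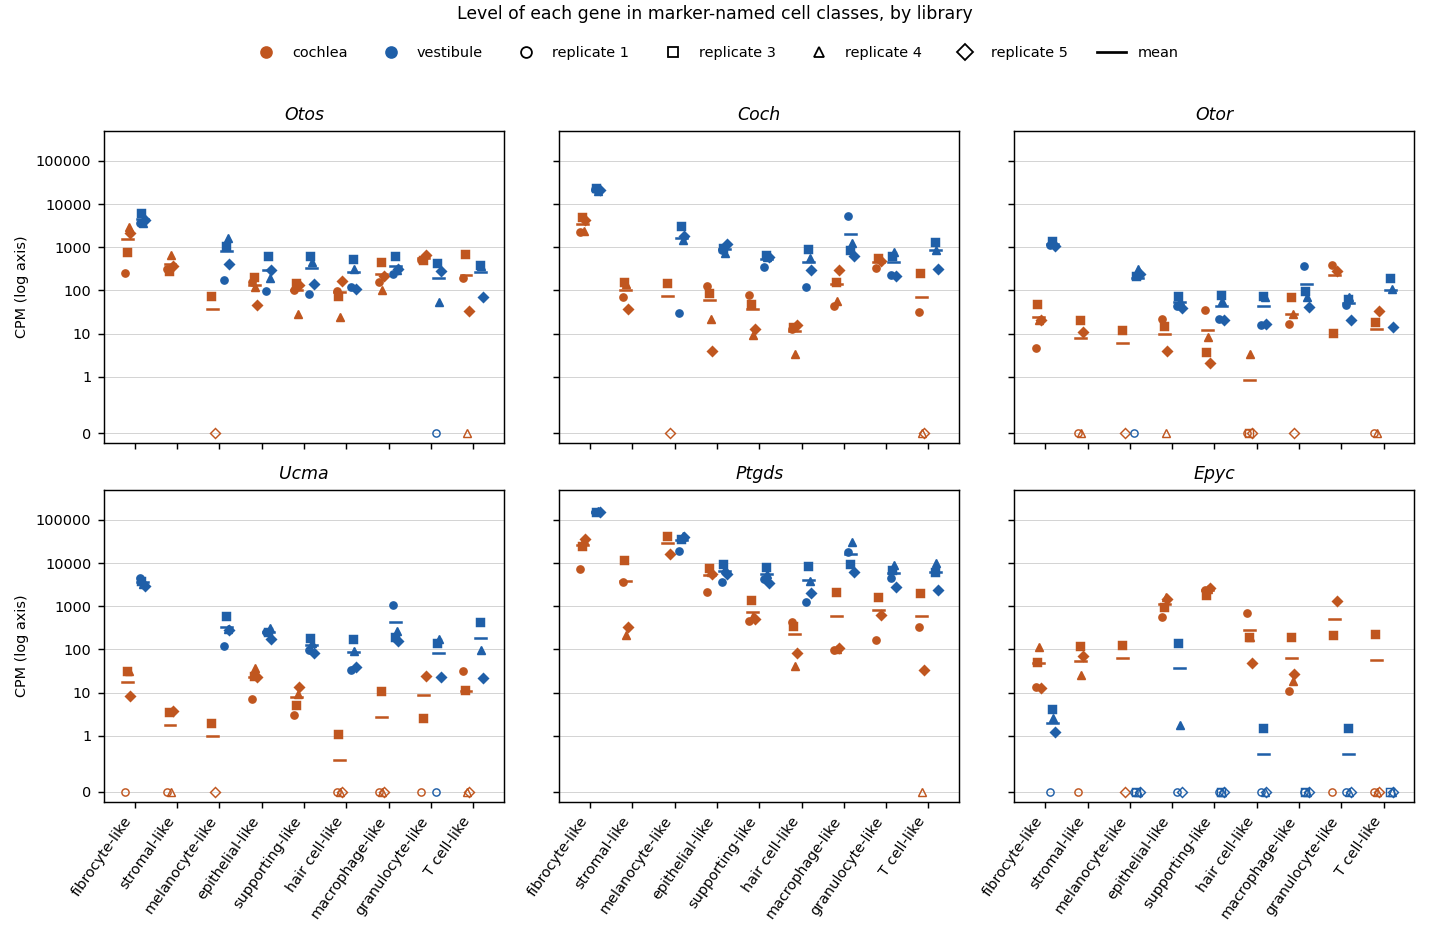
CPM (log axis) of each gene in marker-named classes of the cochlea and the vestibule (marginal or dark cell-like cells are not drawn), 1 point per library with its replicate by symbol and a line at the mean; open points at the bottom are libraries at 0, and stromal-like cells were named in the cochlea only. In the vestibule the fibrocyte-like cells stand above every other class drawn for all genes but Epyc, while in the cochlea Epyc is highest in supporting cell-like cells.

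**Figure D2:**
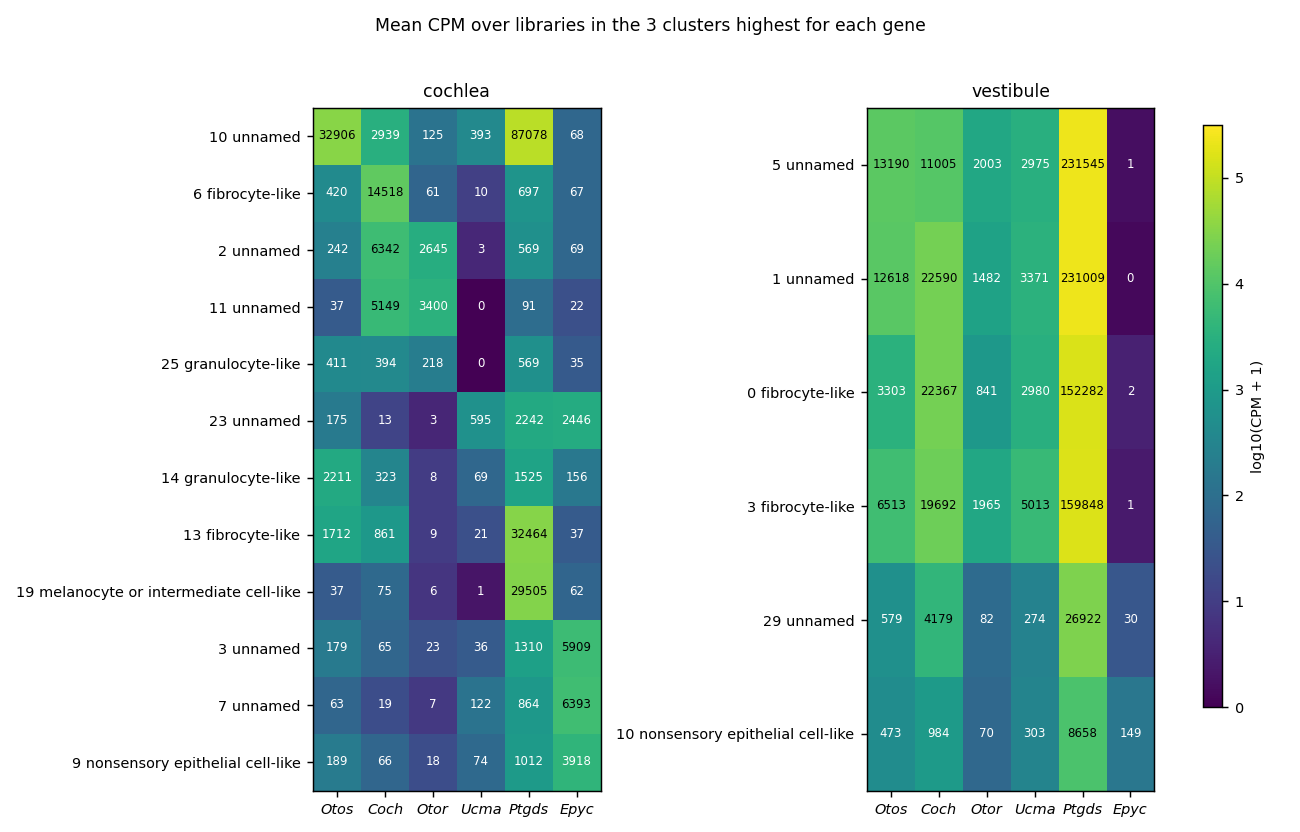
Mean level over libraries (number in each cell, CPM; colour, log10 of the level plus 1) in the clusters that are among the 3 highest for at least 1 of the 6 genes. The vestibular clusters 5, 1, 0 and 3 hold 5 genes together, whereas in the cochlea Otos, Otor, Ucma and Epyc each peak in a different cluster.

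Cell by cell, Otor lay with Coch in both organs and with Ucma mainly in the vestibule. A cell was counted as over background for a gene when the gene's share of its UMIs was above the 95th percentile of immune-like cells of the same library. In the vestibule, 85.0% of the 1986 cells over background for Otor were also over for Coch, 78.7% for Ucma and 73.1% for Ptgds, and 83.4% of the 3044 Ucma cells were over for Coch. Of the 3429 Coch cells there, 77.4% were over for Ptgds, 74.0% for Ucma, 49.2% for Otor and 34.8% for Otos. In the cochlea 84.4% of the 1002 Otor cells were also over for Coch, but 2.79% for Ucma, which was 7.51% of the 373 Ucma cells. Of those Ucma cells 67.6% were over for Epyc, which was 14.2% of the 1775 Epyc cells. Otos cells of the cochlea numbered 389, of which 49.4% were over for Ptgds and 45.2% for Coch. The background was higher in the vestibule, so fewer cells with little RNA of a gene could pass it there. For Ucma the limit was 0 CPM in every cochlear library, so any UMI passed a cell, against 545 to 2405 CPM in the vestibule. For Otor it was 0 in cochlear replicates 3 and 5, and 63.7 and 124 in replicates 1 and 4. For Epyc it was 0, 812, 37.5 and 471 in cochlear replicates 1, 3, 4 and 5. The shares of the organs were thus taken at unlike limits. The limits rested on 27 to 931 immune-like cells per library.

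The profiles over clusters and libraries gave the same picture as correlations, which are descriptive, since profiles share libraries and depth. They also hold any RNA that entered droplets from other cells, and its part in these correlations was not tested. Over the 99 vestibular profiles of at least 20 cells, Pearson's r of log2(CPM + 1) among Otos, Coch, Otor, Ucma and Ptgds ran from 0.81 to 0.95. Over the 65 cochlear profiles it was 0.69 for Coch with Otor, 0.56 for Otos with Ptgds, 0.58 for Ucma with Epyc, -0.12 for Otor with Ucma and -0.47 for Coch with Epyc. Over all 164 profiles, the genes most like each member included Trf and Apod for Coch (r = 0.83 for both); they were Nat8l, Tdrd12 and 9230102O04Rik for Epyc (0.89, 0.88 and 0.86) and Spink8, Rbp4 and Sox8 for Ucma (0.74, 0.73 and 0.71). They were Gm525, S100b and Trf for Otos (0.78, 0.73 and 0.73), Wif1, Cntnap4 and C130074G19Rik for Otor (0.72, 0.70 and 0.68), and S100b, Ppp1r1a and Gm525 for Ptgds (0.84, 0.81 and 0.81).

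Over all kept cells, Coch, Ucma, Ptgds and Otos were lower in the cochlea than in the vestibule, and Epyc had nearly all of its UMIs in the cochlea. The UMIs were summed per library and tested with edgeR's quasi-likelihood test over 14530 genes. Of these, 13.6% were called higher in the vestibule and 11.1% higher in the cochlea at a Benjamini-Hochberg adjusted p under 0.05. These sums include the clusters whose levels had shaped the list. The p-values of members over all kept cells are therefore given as a description, not as independent tests. Coch was at 674, 1202, 1230 and 1907 CPM in the cochlea and 4218, 5329, 5211 and 3742 in the vestibule, with no overlap, and the log2 fold change (cochlea over vestibule) was -1.91 ± 0.33 (SE, edgeR adjusted p = 0.00190). Ucma was at 9.70, 30.5, 76.3 and 26.0 against 958, 959, 912 and 533, a log2 fold change of -4.54 ± 0.56 (edgeR adjusted p = 0.000212). Both matrix genes were thus lower in every cochlear library than in any vestibular library. Epyc, the third matrix gene, went the other way: it was at 1277, 1168, 1719 and 1593 in the cochlea and 0.300, 19.9, 0.678 and 0.152 in the vestibule, a fitted log2 fold change of 7.80 ± 1.21 that was 11.7 without replicate 3. Epyc passed the filter on low counts through the cochlea, with 1 vestibular library over the filter's level, so no test of it is given.

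Ptgds was at 1739, 7172, 4130 and 6627 in the cochlea and 38649, 43998, 47917 and 31703 in the vestibule, a log2 fold change of -3.06 ± 0.46 (edgeR adjusted p = 0.000772). Otos was at 243, 450, 691 and 1053 against 1218, 2117, 1497 and 1302. Its libraries did not overlap either, but the call was near the threshold, at -1.36 ± 0.43 (edgeR adjusted p = 0.0415), and was lost without replicate 3 (adjusted p = 0.219), without replicate 4 (0.140) and among cells of at least 2000 UMIs (0.155). Otor was at 168, 595, 811 and 639 in the cochlea and 284, 373, 371 and 219 in the vestibule, with overlapping libraries, and its difference of 0.81 ± 0.43 missed the threshold (edgeR adjusted p = 0.208). Without replicate 1, whose cochlear library was low for all members but Epyc, Otor was higher in the cochlea at 1.02 (adjusted p = 0.0115). In sums over all cells, a larger part of fibrocytes among the captured cells and more RNA per fibrocyte cannot be told apart; fibrocyte-like cells were 7.81% of kept cells in the cochlea and 21.1% in the vestibule.

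**Figure D3:**
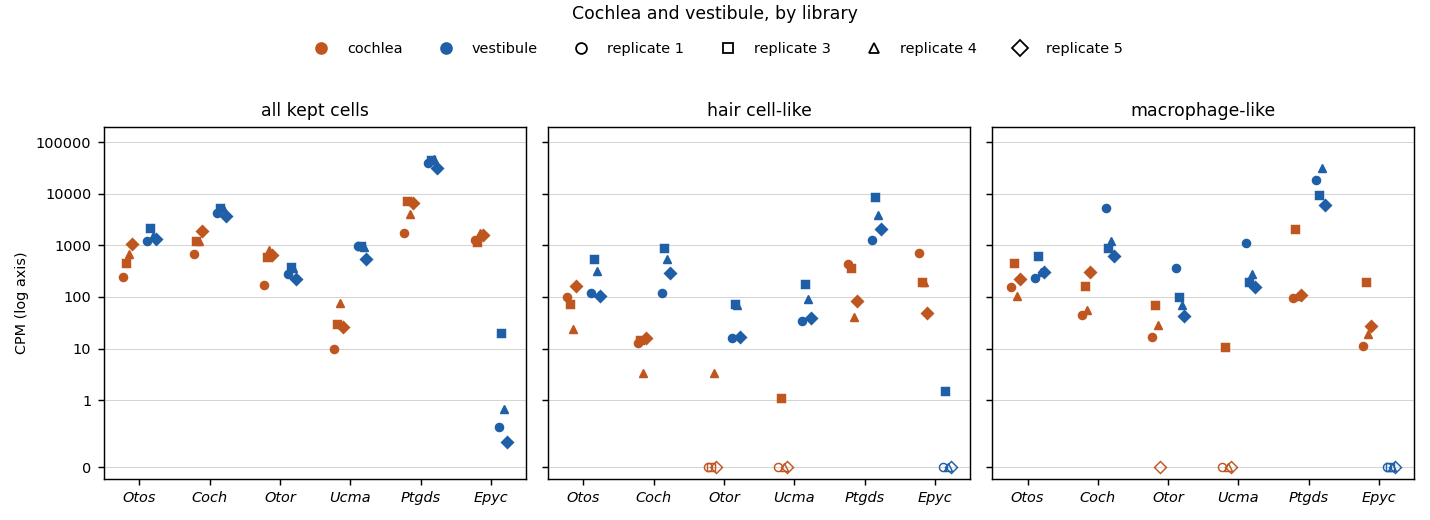
CPM (log axis) of each gene in all kept cells, hair cell-like cells and macrophage-like cells, 1 point per library with its replicate by symbol; open points at the bottom are libraries at 0. Epyc is the gene that stands higher in the cochlea in all 3 panels, and Coch, Ucma and Ptgds stand higher in the vestibule in all 3.

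In mesenchymal cells the levels of Otos, Coch, Otor, Ucma and Ptgds were higher in the vestibule, given here without a test because clusters like these had shaped the list. The cochlear set held stromal-like clusters 0 and 15 beside fibrocyte-like clusters 6 and 13, and the vestibular set held fibrocyte-like clusters 0 and 3 alone. Log2 fold changes of the cochlea over the vestibule were -2.04 for Otos, -3.22 for Ptgds, -3.46 for Coch, -6.01 for Otor and -8.21 for Ucma, and -1.64, -2.73, -2.78, -5.56 and -7.56 with the fibrocyte-like clusters alone. Epyc went the other way, at 11.4, 87.9, 100.4 and 33.5 CPM in mesenchymal cells of the cochlea against 0, 4.19, 2.53 and 1.22 in those of the vestibule, and had too few UMIs for the fit. Its median ratio to all kept cells of a cochlear library was 0.0397 there. That ratio was 0.0141 in macrophage-like and 0.140 in hair cell-like cells. Whether the mesenchymal cells made this RNA was not tested. The unnamed clusters that held much of Otos, Otor and Ptgds (cochlear 2, 10 and 11, vestibular 1 and 5) were not in these sums. The 6 genes together made up 18.6% ± 0.51 of the UMIs of mesenchymal cells of the vestibule and 2.30% ± 1.07 of those of the cochlea (SD, n = 4).

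Families and partners of the 6 genes were read from the same fit of 8007 genes, of which 10.7% were called higher in the cochlea and 8.39% higher in the vestibule. Of 12 small leucine-rich proteoglycans, the family of Epyc, 7 were tested and 3 were higher in the cochlea, namely Omd (2.31), Bgn (2.15) and Ogn (1.63 on the log2 scale), while Lum was lower (-1.57). The median of the 7 was 1.08, against -0.003 for all genes tested, and it was -0.09 when stromal-like clusters were left out, with the same counts called. Of 11 relatives of cochlin by domain, 5 were tested: Vwa1 was higher in the cochlea (1.26), Matn2 (-2.34) and Crispld2 (-1.61) were lower, and the median was -0.53. Of 9 lipocalin and prostaglandin D2 genes, 3 were tested and 2 were higher in the vestibule, Rbp4, the retinol carrier (-7.09), and Apod, a lipocalin (-1.37), with a median of -1.37. None of the 5 tested of 8 Gla protein and vitamin K cycle genes (median 0.23) and neither of the 2 tested of 3 MIA family genes (median -0.23) passed the adjusted threshold in edgeR, and 1 of each was called higher in the vestibule with fibrocyte-like clusters alone.

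Genes for the ion-handling side of fibrocytes split between the organs. Of 10 listed, 9 were tested. The Na,K-ATPase subunit Atp1b1 (5.91) and the potassium channel Kcnk2 (3.68) were among 4 higher in the cochlea, and carbonic anhydrase Car3 (-1.90) and the connexins Gja1 (-1.38) and Gjb6 (-1.28) were the 3 higher in the vestibule, with a median of -0.71. Of 8 otic mesenchyme transcription factors 5 were tested, and Foxd1 (2.98) and Prrx2 (2.65) were higher in the cochlea, with a median of 0.57. All these calls are edgeR adjusted p under 0.05. Kcnk2 and Car3 were also among the markers that named the clusters.

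The members were also counted in cells other than fibrocytes. In droplet libraries, RNA from broken cells can enter any droplet, so a gene made in bulk by a cell type leaves UMIs in the others. In the vestibule, hair cell-like cells (2008 cells, all 6 hair cell markers detected) held Ptgds at 1244, 8581, 3929 and 2042 CPM and Coch at 121, 896, 550 and 296. Otos was at 119, 533, 313 and 105, Ucma at 33.9, 175, 92.8 and 38.2, and Otor at 15.7, 73.2, 69.4 and 17. Replicate 3 was highest for all 5. The clusters of this class were not alike. Cluster 8 held 361 of its cells, 225 of them in replicate 3, with a median of 1486 UMIs and 5 hair cell markers enriched. Ptgds was at 22905, Coch at 2462 and Otos at 1440 CPM in its pooled cells. In hair cell-like clusters 4, 9, 11 and 12 they were at 3114 to 5249, 387 to 624 and 214 to 342. The part of cluster 8 in the class levels was not tested. In the cochlea the 222 hair cell-like cells, in cluster 16 with inner hair cell genes Slc17a8 and Otof and cluster 24 with outer hair cell genes Ocm and Slc26a5, held Ptgds at 437, 356, 41.2 and 83.3, Otos at 99, 73.2, 24.0 and 163 and Coch at 12.8, 14.4, 3.43 and 16.0. Epyc was at 706, 195, 196 and 48.0 there.

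Immune cells set the level to read these against. The UMIs of each cell were thinned to 1000 to equalise depth. Ptgds then had a UMI in 72.2% of vestibular hair cell-like cells (93.2% before thinning, median depth 3789 UMIs), against 77.8% of T cell-like (94.3%, 2932), 73.4% of granulocyte-like (89.2%, 3391) and 83.7% of macrophage-like cells (96.1%, 2970). For Coch the thinned shares were 27.2% in hair cell-like cells and 29.5%, 28.3% and 44.6% in the same 3 immune classes (49.95% and 54.0%, 49.0% and 67.8% before thinning). For Otos they were 17.9% against 18.2%, 16.3% and 28.4% (35.3% and 35.8%, 33.5% and 49.9% before thinning). The hair cell shares of these 3 genes lay at or below those of at least 2 of the 3 immune classes. Whether their RNA came from the hair cell-like cells was not tested.

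The count of Ptgds per droplet in hair cell-like cells was also close to that in granulocyte-like and T cell-like cells. Its median in hair cell-like cells of the vestibule was 2, 9, 4 and 2 UMIs per cell in replicates 1, 3, 4 and 5, in granulocyte-like cells 4, 10, 5.5 and 2, and in T cell-like cells 9, 5 and 2 in the 3 libraries that had them. In fibrocyte-like cells it was 291, 233.5, 244 and 270. Replicate 3 thus had the highest medians in hair cell-like, granulocyte-like and T cell-like cells and the lowest median in fibrocyte-like cells. Within replicate 3, hair cell-like cells below the median depth held a median of 10 Ptgds UMIs and those above it 9. Their levels were 14630 and 6499 CPM. In replicates 1, 4 and 5 the medians were 2 and 2, 4 and 5, and 1.5 and 2. The levels were 1335 and 1217 CPM, 3435 and 4220, and 3184 and 1534. The median count was thus nearly the same in each library. The level fell with depth in replicates 3 and 5, changed little in replicate 1 and rose in replicate 4. The mean count was higher in the deeper cells of every library, at 7.30 against 2.39 UMIs in replicate 1.

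**Figure D4:**
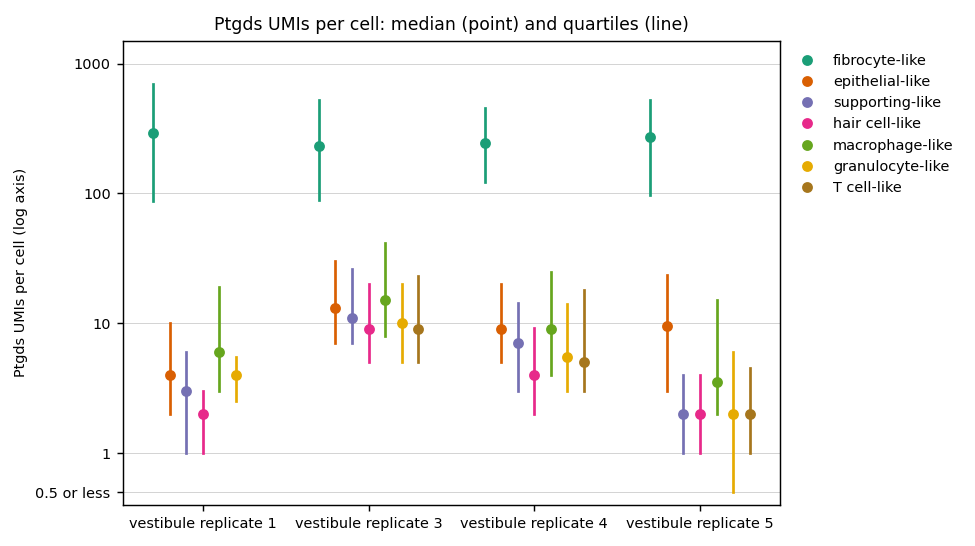
Ptgds UMIs per cell (log axis) in the 4 vestibular libraries, with the median as a point and the quartiles as a line for each marker-named class. Fibrocyte-like medians stand between 233.5 and 291 in every library, and the medians of the 6 other classes move together from 2 to 15.

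In the vestibule, Ptgds, Coch and Ucma had similar proportions in fibrocyte-like and hair cell-like cells. Ptgds made up 83.3% to 85.7% of the members' UMIs over all kept cells of the vestibule, 81.7% to 85.2% in fibrocyte-like cells and 79.3% to 83.6% in hair cell-like cells. Coch made up 9.30% to 10.1%, 10.48% to 12.3% and 7.90% to 11.8%, and Ucma 1.42% to 2.11%, 1.64% to 2.47% and 1.53% to 2.21%. Otos was a larger part in hair cell-like cells, at 4.22% to 7.74%, than in fibrocyte-like cells, at 1.92% to 3.21%. In the cochlea, where members peaked in different clusters, the makeup differed between classes: Epyc was 11% to 31.1% over all kept cells, 52.7% to 79.4% in supporting cell-like and 15.5% to 73.1% in hair cell-like cells, and 3.45% to 6.44% in macrophage-like cells.

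**Figure D5:**
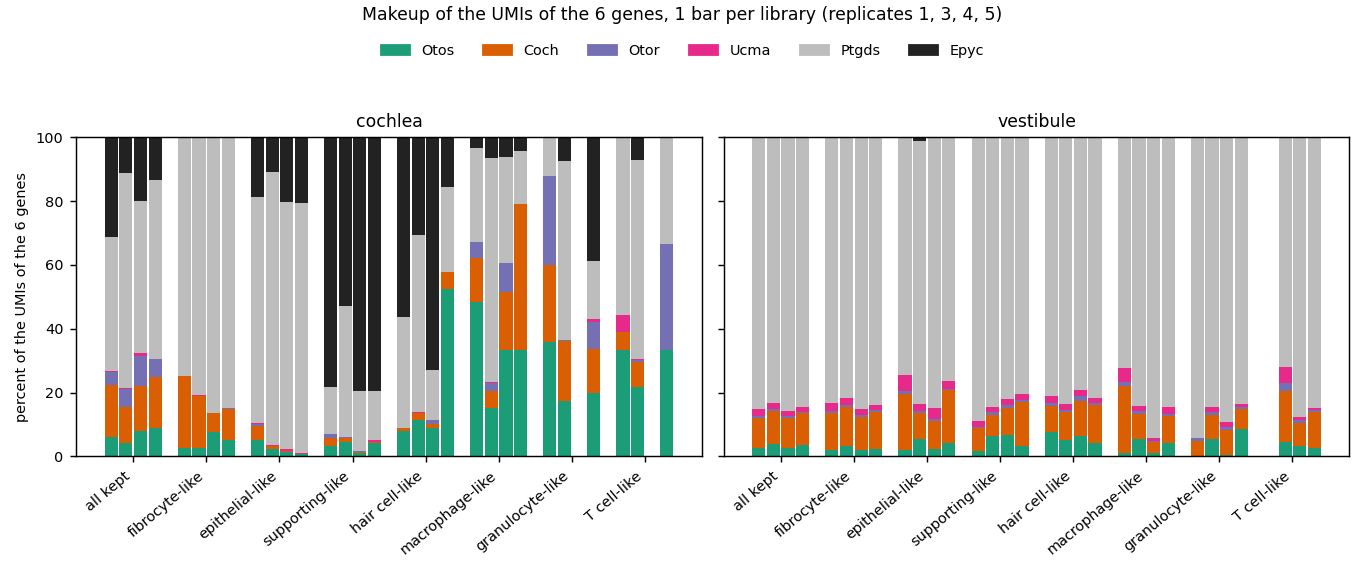
Percent of the UMIs of the 6 genes that each gene contributes, 1 bar per library, for all kept cells and 7 marker-named classes of each organ. Ptgds is the largest part of every vestibular bar, at 72.1% to 94.4%. The cochlear bars differ between classes and, in immune classes with few UMIs, between libraries.

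In hair cell-like cells Coch, Ptgds and Otos were lower in the cochlea, Otor and Ucma were nearly missing from it, and Epyc was nearly missing from the vestibule. The test ran on 8925 genes, of which 37.3% were called in either direction, 20% higher in the vestibule and 17.3% higher in the cochlea. The list had been selected on levels across clusters of these data. The p-values of members in hair cell-like cells are therefore given as a description too, not as independent tests. Coch was lower in the cochlea by a log2 fold change of -5.21 ± 0.58 (edgeR adjusted p = 4.57e-07) and Ptgds by -4.07 ± 0.63 (edgeR adjusted p = 2.97e-05). Coch was over the level of the filter on low counts in 3 of 4 cochlear libraries, and Ptgds in all 4. Coch had 23 UMIs in all cochlear hair cell-like cells, against 5083 in those of the vestibule. Otor and Ucma each had 1 UMI in all cochlear hair cell-like cells, against 451 and 951 in those of the vestibule. Their pooled levels were 103 times (95% counting interval 18.4 to 4068) and 217 times (38.8 to 8569) higher in the vestibule. Counting intervals cover counting error only. Epyc was 343 times higher in the cochlea (interval 156 to 939), resting on 469 UMIs against 6, of which 5 were in 1 cell of replicate 3. Without replicate 3 the vestibule had no Epyc UMI there, and the level was at least 416-fold higher in the cochlea against a floor of 3 UMIs over the vestibular cells. Otor, Ucma and Epyc passed the filter through 1 organ alone, with 0 libraries of the other organ over its level, so that no test of them is given.

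Otos gave the least firm of these calls, at -1.61 ± 0.47 (edgeR adjusted p = 0.0107). Its libraries overlapped, at 24.0 to 163 in the cochlea and 105 to 533 in the vestibule. The call was lost without replicate 3 (-0.90, adjusted p = 0.161), without replicate 4 (-1.28, 0.0829) and when cells with 2 or more fibrocyte markers were left out (-1.19, 0.0728). With classes set cell by cell from markers it was -0.065 (0.940). Fibrocyte markers moved with the organ in hair cell-like cells: all 6 were detected in both, with a summed level of 69.4 to 261 CPM in the vestibule and 3.43 to 23.3 in the cochlea, against 3575 to 4529 in vestibular mesenchymal cells; their part in these differences was not tested.

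Epyc in cochlear hair cell-like cells came from few cells. Its median was 0 UMIs per cell in every library. In replicate 1, the library with the highest level, 1 cell held 38.5% of its 221 UMIs, and in replicate 4 1 cell held 40.4% of 57. After thinning, 8.11% of hair cell-like cells had an Epyc UMI (23.4% before, median depth 5402), between the 6.32% of macrophage-like cells (9.93%, 2548) and the 9.69% of granulocyte-like cells (11.6%, 1284), so that the share lay within the range of immune classes. Thinning removed most UMIs of the deep hair cell-like cells, and unthinned measures stood higher: 26 of the 222 cells (11.7%) were over the background limit for Epyc, against 4.51% of macrophage-like and 7.36% of granulocyte-like cells. The deeper cells of each library also held it at the higher level, at 843, 215, 246 and 52.8 CPM in replicates 1, 3, 4 and 5 against 103, 102, 0 and 21.3 in the shallower cells, whereas Ptgds was lower in the deeper cells in replicates 1, 3 and 5. Whether the Epyc RNA came from these cells was not tested. Of the 469 UMIs, 418 were in cluster 16, the cluster with inner hair cell genes. Supporting cell-like cells of the cochlea held Epyc at 2389, 1816, 2449 and 2611 CPM.

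Coch was also lower in the cochlea in macrophage-like cells, of which there were fewer. There were 40, 358, 20 and 25 of them in the cochlea and 11, 190, 78 and 84 in the vestibule, and of 3092 genes tested 0.97% were called in either direction, with 0.42% of all genes tested higher in the vestibule and 0.55% higher in the cochlea. Ucma was at 0, 10.9, 0 and 0 in the cochlea and 1089, 192, 272 and 156 in the vestibule, a pooled ratio of 25.8 (interval 15.4 to 46.6) with all 15 cochlear UMIs in replicate 3. Without that replicate it was at least 30.8-fold higher in the vestibule against a floor of 3 UMIs over the cochlear cells. Ucma passed the filter through the vestibule alone, so no test of it is given. Coch was at 44.4, 160, 56.4 and 303 against 5359, 885, 1235 and 618, without overlap, at a log2 fold change of -3.81 ± 0.76 (edgeR adjusted p = 0.0359), and 1 cell held 89.2% of its 251 UMIs in replicate 1 of the vestibule. The Coch call was lost without replicate 3 (adjusted p = 0.0891), without replicate 4 (0.154) and without cells that had 2 or more fibrocyte markers (-2.44, 0.0991). As in hair cell-like cells, the p-values of members in macrophage-like cells are given as a description, not as independent tests.

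Ptgds in macrophage-like cells was at 94.3, 2108, 103 and 110 in the cochlea and 18468, 9470, 31380 and 6160 in the vestibule. The libraries did not overlap, but at -4.62 ± 1.01 the difference missed the threshold (edgeR adjusted p = 0.0511). Without replicate 3, whose cochlear library stood far above the other 3, it was -7.47 (adjusted p = 0.000564). In vestibular replicates 1, 4 and 5, 1 macrophage-like cell held 77.7%, 61.3% and 52.5% of the Ptgds UMIs. Otos, at 155, 459, 103 and 221 against 235, 612, 301 and 308, and Otor, at 16.6, 70.2, 28.2 and 0 against 363, 98.5, 69.0 and 42, overlapped between the organs and missed the threshold (edgeR adjusted p = 0.648 and 0.525). Epyc had 273 UMIs in the cochlea, at 11.1, 193, 18.8 and 27.6 CPM, and none in the vestibule, and was at least 84.4-fold higher in the cochlea against a floor of 3 UMIs over the vestibular cells. Of the 273 UMIs 267 were in replicate 3, and without it the bound was 4.18-fold. Epyc did not pass the filter on low counts. The summed level of the 6 fibrocyte markers was 161 to 3267 in vestibular and 13.8 to 56.4 in cochlear macrophage-like cells, and its part was not tested.

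The few Epyc UMIs of the vestibule came from 1 library. Replicate 3 held 377 of them in 24 cells, and the other 3 libraries held 1, 5 and 1. In replicate 3, 12 cells with 5 or more UMIs held 95.2% of them, 9 of these cells were in nonsensory epithelial cell-like cluster 10 (Abca13, Il17rb, Slc26a4, Mia and Apoc1), and the highest cell held 135. None of these barcodes was among the kept cells of replicate 3 of the cochlea. Barcodes left out of that library were not searched.

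Barcodes left out for having under 1000 UMIs carried the members too. In the vestibule they held Ptgds at 73084, 55037, 96953 and 82288 CPM, above the 38649, 43998, 47917 and 31703 of kept cells, and Coch, Otos, Otor and Ucma were likewise higher there in all 4 libraries. In the cochlea Otos was at 1522, 4286, 10367 and 10341 in such barcodes, against 243, 450, 691 and 1053 in kept cells. Otor went the other way in 3 of 4 cochlear libraries, at 290, 123, 82.8 and 265 against 168, 595, 811 and 639.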

How the data were processed

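Libraries of the cochlea and vestibule were prepared by the authors with the 10x 3′ kit and aligned to mm10. The authors deposited the raw UMI counts per gene and barcode. The submitters' processing notes name Cell Ranger 6.1.2, and the file headers name 5.0.1 for replicates 1 and 2 and 6.1.2 for replicates 3 to 5, so the fit without replicate 1 is the fit within 1 version. Barcodes with at least 1000 UMIs, at least 200 genes and under 25% mitochondrial UMIs were kept. Cells were clustered per organ with Seurat 5.3.0 (2000 variable genes, 30 components, resolution 1). A cluster was named from 6 markers per class where at least 3 were enriched (in at least 25% of its cells, log2 fold over 1). After the clusters were seen, those with all 6 hair cell markers were kept as hair cell-like although they also held neuron markers, and the strict rule was run as an alternative. No doublet caller was run, and whether the authors removed doublets before deposit is not given in the sources used here; cells with 2 or more fibrocyte markers were left out as an alternative.

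The members and gene lists were chosen with earlier results of these data known. Organ contrasts summed UMIs per library and class (at least 5 cells) and used the quasi-likelihood test of edgeR 4.0.16 with TMM scaling, filterByExpr and Benjamini-Hochberg adjustment over all genes tested, threshold 0.05. Named genes were the 6 members, for each list of relatives up to 3 called genes in each direction by size, the 3 non-member genes most correlated with each member and the 5 leading genes of each cluster that held a member at its highest level. Some genes that this rule names are not reported here. Other genes named for a cluster were chosen after their values were seen. Counting intervals are exact at 95%, and floors use 3 counts. On simulated counts the fits recovered 84.1% of changed genes over all kept cells, 98.3% in hair cell-like, 97.3% in macrophage-like and 99.4% in mesenchymal cells, and 3.77%, 9.74%, 8.33% and 4.02% of their calls were false, above the nominal 5% in hair cell-like and macrophage-like cells. Alternatives changed the scaling, the filter on low counts, the tool (DESeq2 1.42.0), the cell limits, the clustering, the classes and the libraries used. Upstream sequences came from RefSeq. No value column was left unmapped (0).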

Additional observations from a re-analysis of the deposited data

Results flagged for a closer look

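Of 47 groups of 4 libraries, 10 held a library far from the other 3 by Dixon's gap test, which flags about 1 group in 20 by chance. That rate does not apply where the other 3 libraries stood at 0, since any count is then flagged. The groups also share libraries, so the 10 are not read as an excess. In the cochlea, hair cell-like cells of replicate 4 held Otor at 3.43 CPM (UMIs per 1000000 UMIs) and those of replicate 3 held Ucma at 1.11, each from 1 UMI, with the other libraries at 0. Macrophage-like cells of the cochlea's replicate 3 stood apart for Ucma (10.9, the others at 0), Ptgds (2108, the others 94.3 to 110) and Epyc (193, the others 11.1 to 27.6). This library held 358 of the macrophage-like cells of the cochlea, against 20 to 40 in the others.

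In the vestibule, Ucma over all kept cells was lowest in replicate 5, at 533 against 912 to 959. Epyc over all kept cells was highest in replicate 3, at 19.9 against 0.152 to 0.678, and in hair cell-like cells it was at 1.47 in that replicate and at 0 in the others. Macrophage-like cells of replicate 1, of which there were 11, stood apart for Coch (5359, the others 618 to 1235) and Ucma (1089, the others 156 to 272).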

How the results depend on the processing

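Of 356 values recomputed for the main comparisons, 316 kept their direction and their side of the threshold, or their size. No log2 fold change of a member changed direction. Alternatives that gave no value for a member were not counted. The 316 include calls of Epyc, Otor and Ucma in comparisons where no test of them is given here. Leaving out 1 replicate moved the count of called genes over all kept cells from 3588 to between 2206 (without replicate 4) and 4085, with 2387 without replicate 3. In macrophage-like cells, where 30 genes were called (411 at an unadjusted p under 0.05), it was 366 with no filter, 88 with DESeq2, 60 at clustering resolution 2, 16 without cells of 2 or more fibrocyte markers, 0 in edgeR with classes set per cell (48 at an unadjusted p under 0.05), and 1 (without replicate 4) to 46 (without replicate 1) when a replicate was left out. In mesenchymal cells, where 1526 were called, it was 2582 with no filter and 623 with classes set per cell.

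Over all kept cells, Otos was at -1.28 (edgeR adjusted p = 0.155) and Otor at 1.38 (0.0485) among cells of at least 2000 UMIs; leaving out a replicate gave -1.81 to -1.05 and 0.62 to 1.02. In hair cell-like cells, Otos was at -1.62 with DESeq2 (0.0821), -0.065 with classes per cell, -1.19 without cells of 2 or more fibrocyte markers, and -2.26 to -0.90 with a replicate left out. The calls of Coch and Ptgds there held under every alternative. In macrophage-like cells, Coch was at -3.83 under 10% mitochondrial UMIs (0.0523), -1.87 with classes per cell (0.986), -2.44 without cells of 2 or more fibrocyte markers, and -4.57 to -2.41 with a replicate left out; Ucma was at -9.38 to -4.42. Ptgds passed at -4.63 with other size factors (0.0483), -4.47 with no filter (3.68e-15), -4.67 with DESeq2 (0.00527), -4.80 under 10% mitochondrial UMIs (0.0469) and -4.71 at resolution 2 (0.0309), and ran from -7.47 to -3.73 with a replicate left out. The members' share of mesenchymal UMIs moved from 2.30% to 3.64% in the cochlea with classes per cell, and from 18.6% to 16.3% in the vestibule, where it was 19.3% at 2000 UMIs and 19.1% under 10% mitochondrial UMIs. The cause of these changes was not tested.

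The replicate numbers were not taken as pairs, since whether same-numbered libraries share animals is not given in the sources used here and not every pair met the limit: same-numbered libraries deviated together over r = 0.1 in 2 of 4 pairs over all kept cells and in 3 of 4 in mesenchymal cells (the fourth at 0.096), although in hair cell-like and mesenchymal cells all 4 libraries correlated best with their own number. A fit with the replicate number as a block called 6 genes in macrophage-like cells and gave Coch there -3.42 (edgeR adjusted p = 0.160).

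Alternatives on fibrocyte markers, strict naming, fibrocyte-like clusters alone and the mean of replicates 1 and 2 were chosen after seeing the data. The 4 pooled libraries per organ, and classes of few cells, limit these tests.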
